A study of Homo sapiens with 26 samples.

Results

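The regions described here are codons 1 to 40 of human coding sequences (CDSs), read transcript by transcript in ribosome profiling (ribo-seq) and mRNA-seq of Huh7 cells. A transcript was included when its CDS held at least 200 codons, which kept 9488 of 12325 transcripts, with a median of 482 codons. For each transcript and library the early ratio was taken as the reads per codon on codons 1 to 40 divided by the reads per codon of the whole CDS, so that a value of 1 is an even spread, a value over 1 an early excess and a value under 1 an early depletion. The mean of the CDS includes codons 1 to 40, so the highest value that the ratio can take is the number of codons divided by 40, which is lower for a short CDS. The ratio also rises when reads on the later codons fall, so a higher ratio does not by itself mean more early reads.

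Huh7 cells are a long-cultured human liver tumour line (hepatocellular carcinoma), and PF-06446846 is a small molecule under study for selective stalling of the human ribosome. The first study held 18 ribo-seq libraries, with 3 of 1.5 μM PF-06446846, 3 of 0.3 μM and 3 of vehicle after 10 min and the same after 60 min. The second held 4 ribo-seq and 4 mRNA-seq libraries, with 2 of 1.5 μM and 2 of vehicle after 60 min in each assay. The vehicle was DMSO, the series text calls the replicates biological, and cycloheximide, an inhibitor of elongation, was in the wash and lysis buffers of every group.

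The ribo-seq libraries held 6414227 to 22224137 reads on CDSs, of which 284908 to 935064 lay on the early codons of the 9488 transcripts, and the mRNA-seq libraries held 15227654 to 22036358, with 960027 to 1476518 early reads. Among the 9488 transcripts, 6355 had an expected count of at least 10 early reads per vehicle library of the first study if reads were spread evenly, and 2553 had at least 50. Levels are described over those 2553. AFP, a marker of fetal hepatocytes and liver tumours, stood at 14250 to 23933 reads per 1000 codons per 1000000 CDS reads in the ribo-seq libraries and the endothelial marker PECAM1 at 15.6 to 36.2. APOB, the lowest of the liver markers with a value, stood at 925 to 1574 and the macrophage marker CD68 at 100 to 167. No transcript was found under the names ALB (liver), PTPRC (leukocytes) and COL1A1 (fibroblasts). In mRNA-seq, vehicle replicate 5 stood apart, with 12.7% of transcripts at an early ratio of 1.5 or more against 4.31% to 5.51% in the other 3 libraries. The total counts of calls between assays and of the mRNA-seq treatment comparison are given without it as well. The other mRNA-seq values, among them the counts by gene group, include it unless stated.

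A ribosome begins at the start codon, and the peptide it makes first fills the exit tunnel of the ribosome. The first codons therefore hold ribosomes that have just left initiation, and, in secreted and membrane proteins, the signal peptide or first membrane segment that directs the ribosome to the endoplasmic reticulum (ER). Upstream open reading frames (ORFs) in the 5′ UTR, start codons further downstream and other splice forms are known to set how many ribosomes are found there.

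The early codons of 11 genes carry the patterns described below, and their sequences (GRCh38, GENCODE models) are given first. In the first set the capitals mark the codon with the most early reads in the vehicle libraries of the first study. They are ATF4 at chr22:39521446-39521565 (plus strand), OAZ1 at chr19:2269599-2269718 (plus), CDX2 at chr13:27968887-27969006 (minus) and TRIB3 at chr20:388011-388130 (plus), each in a single coding exon.
ATF4: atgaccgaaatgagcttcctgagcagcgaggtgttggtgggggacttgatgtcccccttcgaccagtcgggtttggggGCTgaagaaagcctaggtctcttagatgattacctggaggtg
OAZ1: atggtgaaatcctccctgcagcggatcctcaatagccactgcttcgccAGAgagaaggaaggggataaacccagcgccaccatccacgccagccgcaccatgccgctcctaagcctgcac
CDX2: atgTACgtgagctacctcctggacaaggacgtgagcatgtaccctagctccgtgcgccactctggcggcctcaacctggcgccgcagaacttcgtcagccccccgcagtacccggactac
TRIB3: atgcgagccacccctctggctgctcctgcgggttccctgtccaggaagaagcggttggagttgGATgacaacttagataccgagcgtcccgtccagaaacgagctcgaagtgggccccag

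CEBPA, at chr19:33302295-33302414 (minus strand, 1 exon), is shown for its low early reads, and the capitals mark the next ATG in frame, at codon 15.
CEBPA: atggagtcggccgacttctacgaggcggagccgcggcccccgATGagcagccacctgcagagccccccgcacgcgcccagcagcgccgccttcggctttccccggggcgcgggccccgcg

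In the last set, shown for the change with PF-06446846, the capitals mark the codon with the most early reads at 1.5 μM after 60 min in the first study. That codon was chosen without a comparison with vehicle. The study places its main stall at the marked codon in HSD17B11 and BCAP31, and at another codon in PODXL2, PCBP1 and PCBP2. HSD17B11 lies at chr4:87390951-87391070 (minus strand, 1 exon), TM2D3 at chr15:101651745-101652361 (minus, 2 exons), PODXL2 at chr3:127629220-127639294 (plus, 2 exons) and BCAP31 at chrX:153720945-153723244 (minus, 2 exons). PCBP1 lies at chr2:70087744-70087863 (plus, 1 exon) and PCBP2 at chr12:53454801-53455487 (plus, 3 exons).
HSD17B11: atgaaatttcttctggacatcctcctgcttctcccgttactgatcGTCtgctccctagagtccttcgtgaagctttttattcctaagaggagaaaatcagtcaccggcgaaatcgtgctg
TM2D3: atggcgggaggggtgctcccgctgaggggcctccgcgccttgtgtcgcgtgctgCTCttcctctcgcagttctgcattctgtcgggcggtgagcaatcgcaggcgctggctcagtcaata
PODXL2: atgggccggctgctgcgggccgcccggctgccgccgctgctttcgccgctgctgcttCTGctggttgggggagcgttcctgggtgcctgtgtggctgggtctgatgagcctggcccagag
BCAP31: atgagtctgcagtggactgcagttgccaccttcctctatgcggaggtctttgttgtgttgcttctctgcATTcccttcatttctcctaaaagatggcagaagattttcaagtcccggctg
PCBP1: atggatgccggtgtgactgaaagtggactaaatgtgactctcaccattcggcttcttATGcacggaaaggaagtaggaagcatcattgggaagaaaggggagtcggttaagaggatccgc
PCBP2: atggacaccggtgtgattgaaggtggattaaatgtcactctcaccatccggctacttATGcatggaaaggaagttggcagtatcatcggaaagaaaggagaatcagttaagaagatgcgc

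Most transcripts carried fewer ribosome footprints on their first 40 codons than on the rest of the CDS. Over the 2553 transcripts the mean early ratio of the 6 vehicle libraries of the first study had a median of 0.518, with quartiles of 0.360 and 0.710, the 5th and 95th percentiles at 0.150 and 1.11, and a maximum of 11.6. In the second study the median was 0.691 in ribo-seq and 0.905 in mRNA-seq. The ratio was under 1 in each of the 22 ribo-seq libraries for 1526 transcripts (59.8%) and over 1 in each of them for 42 (1.65%), so an early excess that held in all ribo-seq libraries was far less common than a depletion that did. The spread between transcripts (SD 0.415) was larger than the spread of a transcript between the 6 vehicle libraries (median SD 0.123, or 25.5% of its mean).

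The ratios of transcripts ranked alike in separate groups. Across the 2553 transcripts Pearson's r on the log2 scale was 0.919 between vehicle at 10 and 60 min, 0.855 between the vehicle ribo-seq groups of the studies, 0.858 between the mRNA-seq groups and 0.572 between ribo-seq and mRNA-seq in vehicle. The points share their base composition and annotation, and genes are not independent replicates.

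The depletion was deepest in the first 20 codons. In vehicle at 10 min the median transcript had 0.244 of its CDS mean on codons 1 to 10, 0.261 on codons 11 to 20, 0.540 on codons 21 to 30, 0.711 on codons 31 to 40 and 0.850 on codons 51 to 60. In mRNA-seq of vehicle the same windows stayed between 0.852 and 0.919. The second study had shallower values than the first, and its lowest window was codons 11 to 20, with 0.411 in vehicle ribo-seq against 0.528 on codons 1 to 10. The second study was carried out after the first, and the difference in the depth of the depletion cannot be told apart from other differences between them.

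**Figure D1:**
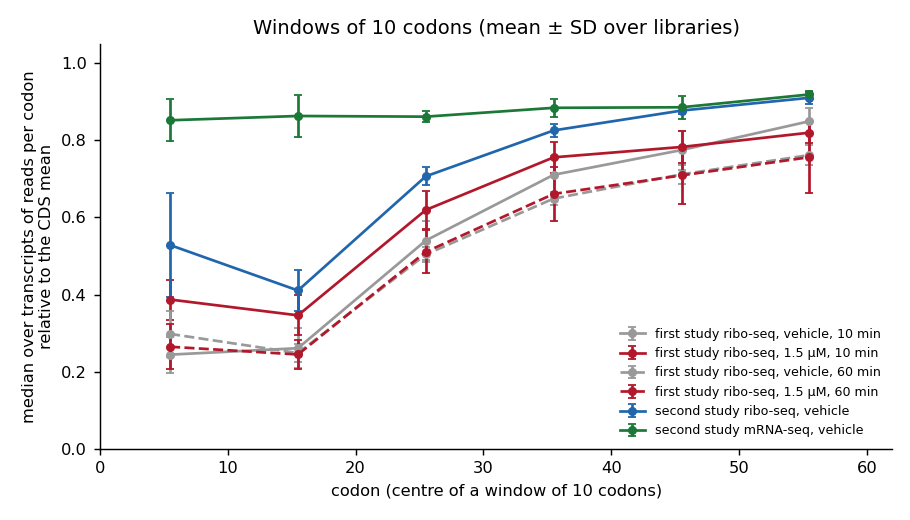
Median over 2553 transcripts of the reads per codon relative to the CDS mean (vertical axis) in windows of 10 codons (horizontal axis, codon), as the mean over the libraries of a group with SD, for vehicle and 1.5 μM of the first study and vehicle of the second. These ribo-seq lines start between 0.244 and 0.528 and rise to between 0.756 and 0.910 at codons 51 to 60, while vehicle mRNA-seq stays between 0.852 and 0.919.

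Early depletion varied with the base composition of the region. The transcripts were divided into 4 classes of similar size by the GC content of codons 1 to 40. The median vehicle ratio of the first study was 0.319 in the class of highest GC content (65.8% to 87.5%) and 0.632 in the class of lowest (28.3% to 49.2%). In mRNA-seq the same classes had medians of 0.811 and 0.932, a difference in the same direction and smaller. CDS length had no such range, with medians between 0.504 and 0.535 in its 4 classes. The hydropathy of the encoded segment (highest mean over 9 residues) went with medians of 0.493 to 0.551. GC content and hydropathy had a value for 89.5% of the transcripts, those whose CDS matched the GENCODE model. The differences between classes were not tested, and the part of GC content in library preparation or alignment was not tested.

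A small set of genes held an early excess in every ribo-seq library. The ratio was at or over 1.5 in all 22 for 12 transcripts, of which 5 had a mean mRNA-seq ratio under 1.2, namely ATF4, CDX2, MRS2, OAZ1 and TRIB3. For the other transcripts of this set the mRNA-seq ratio was raised too. Reads of ATP5MF-PTCD1 and HSPE1-MOB4, which are read-through loci that join a short gene to its neighbour, gave mean vehicle ratios of 11.6 and 3.56 in ribo-seq and of 10.3 and 4.31 in mRNA-seq. The FOXP2 model, of 228 codons, did not match GENCODE and had 5.51 and 5.45. Reads with several best sites were counted on each transcript, and the part of shared sequence in these 3 genes was not tested.

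OAZ1, the ornithine decarboxylase antizyme, whose full-length protein is made by a programmed ribosomal frameshift, had an excess in every ribo-seq library. Its early ratio in vehicle was 4.55, 4.61 and 4.56 at 10 min and 4.56, 4.28 and 4.56 at 60 min, with 4.49 and 4.52 in vehicle of the second study. The mRNA-seq ratio was 1.09 and 1.12 in vehicle and 1.08 and 1.04 at 1.5 μM. All 22 ribo-seq libraries thus lay between 3.77 and 4.61, above the 4 mRNA-seq libraries. Its reads rose to a peak at codon 17, marked above, with 16.0% of the early reads of vehicle on that codon.

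Genes of the integrated stress response were also in this set. ATF4, its transcription factor, had early ratios of 4.51, 4.87 and 4.82 in vehicle at 10 min, 4.47, 4.32 and 4.01 at 60 min and 4.10 and 4.33 in the second study. Its mRNA-seq ratios were 0.858 and 1.01 in vehicle. The excess was concentrated, with 41.5% of the early reads at codon 27 in vehicle of the first study, and codon 27 was also the peak in each of the 1.5 μM ribo-seq groups. TRIB3, a pseudokinase gene that ATF4 is known to induce, had 2.75, 3.71 and 2.97 in vehicle at 10 min and 4.79, 3.24 and 3.26 at 60 min, against 1.02 and 0.913 in mRNA-seq, with 70.8% of its early reads at codon 22. ATF5, a related factor that is not among the 2553, had fewer reads (207 early reads over the 6 vehicle libraries) and ratios between 3.86 and 6.66 in the 22 ribo-seq libraries, against 0.703 to 0.901 in mRNA-seq.

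CDX2, an intestinal transcription factor gene, carried its excess at the start itself. Its ratios were 3.39, 2.53 and 4.06 in vehicle at 10 min, 4.51, 4.01 and 4.70 at 60 min and 2.58 and 2.00 in the second study, against 1.07 and 1.01 in mRNA-seq of vehicle. In vehicle of the first study 79.7% of the early reads lay on codon 2. NAA60, a protein acetyltransferase gene of the Golgi, had 69.2% of its early reads on codon 22 and a mean vehicle ratio of 2.36 ± 0.355 (SD, n = 6), with 1.25 to 3.23 over the 22 libraries. UBE2S, a ubiquitin-conjugating enzyme of the anaphase-promoting complex, had 2.25 ± 0.301, and CENPN, a centromere protein, 2.67 ± 0.919, with mRNA-seq ratios of 1.43 ± 0.0802 and 1.57 ± 0.144 (SD, n = 4). In these genes the excess was narrow, with 31.9% to 79.7% of the early reads of CDX2, NAA60, UBE2S and CENPN on a single codon.

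**Figure D2:**
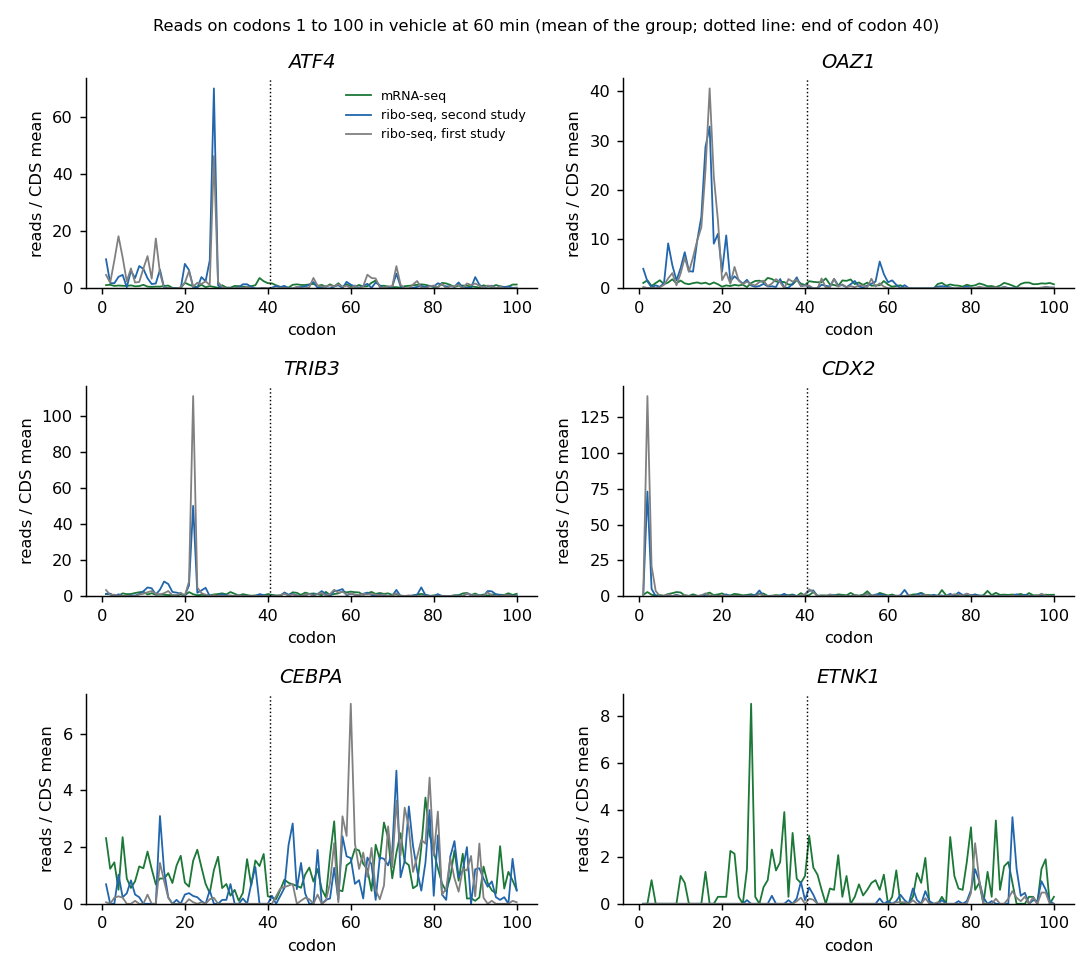
Reads at codons 1 to 100 relative to the CDS mean (vertical axis, mean of the vehicle libraries at 60 min) for 6 genes, in ribo-seq of the first study (n = 3), ribo-seq of the second (n = 2) and mRNA-seq (n = 2), with a dotted line at the end of codon 40. The peaks of ATF4 (codon 27), OAZ1 (17), TRIB3 (22) and CDX2 (2) appear in both ribo-seq groups and not in mRNA-seq, while CEBPA and ETNK1 have mRNA-seq reads before codon 40 and few footprints there.

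At the other end, 207 of the 2553 transcripts (8.11%) had ratios at or under 0.5 in all 22 ribo-seq libraries and 21 had ratios at or under 0.1. Of those 21, 15 were also at or under 0.1 on average in mRNA-seq, so that the first 40 codons of the model were nearly unread in either assay. TUBA1C (an α-tubulin), ACTA2 (smooth muscle actin), POTEF (an actin fusion gene) and DDX39B (an RNA helicase of mRNA export) had no early read in any of the 26 libraries. A count of 0 allows ratios of up to 2.48e-05, 0.000191, 0.000111 and 0.000315 (3 reads over all libraries, counting error only). These genes have close relatives, and the part of reads shared with them was not tested. ACTA1, skeletal actin, had 3 early reads in all ribo-seq libraries and 5 in mRNA-seq, and USP11, a deubiquitinase gene, 6 in ribo-seq and a mean mRNA-seq ratio of 0.0820 ± 0.0135 (SD, n = 4). LIMS3 had 1 early read in the 6 vehicle libraries. The GPI model, of 570 codons, did not match GENCODE and had a mean mRNA-seq ratio of 0.0340.

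ETNK1, an ethanolamine kinase gene, was the exception among the 21, with a mean mRNA-seq ratio over 0.5. Its ribo-seq ratios were 0.0113, 0.0256 and 0.0336 in vehicle at 10 min, 0.0114, 0 and 0.0161 at 60 min and 0.0285 and 0.0701 in the second study, against 0.654 and 1.24 in mRNA-seq of vehicle and 1.00 and 0.946 at 1.5 μM. Thus the mRNA of this region was read at the level of the rest of the CDS while 67 footprints in all were found there in 22 libraries. In vehicle the first 1% of the footprints of the CDS was passed at codon 82, and the next ATG in frame stands at codon 71. Its CDS model did not match GENCODE in full.

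In other genes the codon at which the first 1% of the vehicle reads was passed (the onset) stood closer to a later ATG in frame. A few reads before an ATG can set this codon, and where translation began was not tested. In CEBPA, a hepatocyte transcription factor gene, the first 1% of the vehicle reads was passed at codon 15, where the next ATG stands (capitals above). Its ratios were 0.104, 0.345 and 0.118 in vehicle at 10 min and 0.170, 0.0486 and 0.102 at 60 min, with 0.249 and 0.413 in the second study and 0.891 and 1.24 in mRNA-seq. In IDI1, an isomerase of cholesterol synthesis, the onset was codon 58, with ATGs in frame at codons 57 and 58, and the ratio was 0.0308 ± 0.0140 (SD, n = 6) in vehicle ribo-seq and 0.132 ± 0.0327 (SD, n = 4) in mRNA-seq. GLUD2, a glutamate dehydrogenase, had its onset at codon 68, 1 codon before the ATG at codon 69, and its mRNA-seq ratio was 0.0894 ± 0.0198. GLUD2 shares sequence with GLUD1, whose ratios were 0.0904 ± 0.0196 in vehicle ribo-seq and 0.748 ± 0.328 in mRNA-seq.

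Ribo-seq was compared with mRNA-seq within the second study to find which of these patterns are of footprints rather than of mRNA. The median early ratio per library, over 8483 transcripts that each library of that study covered with 20 reads or more, was 0.645 and 0.737 in vehicle ribo-seq, 0.713 and 0.720 at 1.5 μM, 0.858 and 0.900 in vehicle mRNA-seq and 0.899 and 0.868 at 1.5 μM. The 4 ribo-seq libraries lay below the 4 mRNA-seq libraries, by 0.178 on average (two-sided exact permutation test, p = 0.0286, the smallest p that 4 against 4 allows). Both assays were made from the same samples, and when the libraries were paired by sample the median was lower in ribo-seq in 4 of 4 pairs (exact sign-flip test, p = 0.125, the smallest p that 4 pairs allow). The share of transcripts at or under 0.5 was 27.2% ± 3.16 in ribo-seq and 12.5% ± 3.65 in mRNA-seq (SD, n = 4; exact p = 0.0286, or 0.125 when paired by sample), and it was 10.8% ± 1.59 (SD, n = 3) in mRNA-seq without vehicle replicate 5. The share at or over 1.5 differed by -0.00295 percentage points between the assays (exact p = 1), with an SD of 1.17 in ribo-seq and of 3.85 in mRNA-seq, where vehicle replicate 5 had 12.7%.

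Transcript by transcript, the odds that a read lay in codons 1 to 40 were compared between the vehicle libraries of the assays with edgeR's quasi-likelihood test on the early and remaining reads of each library (Benjamini-Hochberg adjusted p under 0.1, or FDR 0.1). Of 7584 transcripts tested, 177 were higher in ribo-seq (2.33%) and 896 lower (11.8%), with a median log2 difference of -0.39. When early and remaining reads were each scaled with edgeR's TMM factors (trimmed mean of M values), which put the median at -0.04, 286 were higher and 305 lower, so the split depends on whether the general depletion is kept in the comparison. The count of 1073 calls went to 118 without ribo-seq vehicle replicate 4, 268 without ribo-seq replicate 5, 2574 without mRNA-seq replicate 4 and 952 without mRNA-seq replicate 5, the library that stood apart. The study prepared both assays from the same samples, and with the replicate number as a block there were 1375 calls.

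The genes highest in ribo-seq by the rule used here were ATF5, OAZ1, MOSPD3, ATF4 and MAPKAPK3. The odds were higher by 5.70 ± 0.575 on the log2 scale for ATF5 (SE, edgeR adjusted p = 1.76e-07), 3.95 ± 0.238 for OAZ1 (adjusted p = 1.56e-12) and 2.96 ± 0.265 for ATF4 (adjusted p = 1.87e-08). MOSPD3, an ER membrane protein gene, had ratios of 2.46 and 4.20 in vehicle ribo-seq and 0.459 and 0.776 in mRNA-seq, but 0.257 to 2.95 at 60 min in the first study, where libraries of the same dose differed. MAPKAPK3, a kinase downstream of p38, had 2.05 and 2.31 against 0.455 and 0.430. CENPN (log2 2.29, adjusted p = 9.39e-05), TRIB3 (1.92, adjusted p = 6.31e-05), CDX2 (1.43, adjusted p = 0.0214) and UBE2S (0.93, adjusted p = 0.0189) passed the same test, and for NAA60 the adjusted p was 0.104.

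Among the genes lowest in ribo-seq, ETNK1 differed by -4.44 ± 0.487 on the log2 scale (SE, edgeR adjusted p = 8.43e-07) and KIFC3, a kinesin gene, by -5.03 ± 0.825 (adjusted p = 0.000111). KIFC3 had ratios of 0.0331 and 0 in vehicle ribo-seq and 0.663 and 0.857 in mRNA-seq, which is 1 early footprint against 248 early mRNA-seq reads. SNX7, a sorting nexin gene, had 3 early footprints (0 and 0.0919) against 172 mRNA-seq reads (0.413 and 1.06), and it was not called without ribo-seq replicate 4 (adjusted p = 0.160). PTGES3L-AARSD1 had no early footprint in the vehicle libraries of the second study and 20 early mRNA-seq reads, and its call was lost without any of ribo-seq replicate 4, ribo-seq replicate 5 and mRNA-seq replicate 5. CEBPA differed by -1.84 on the log2 scale (adjusted p = 0.000187).

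**Figure D3:**
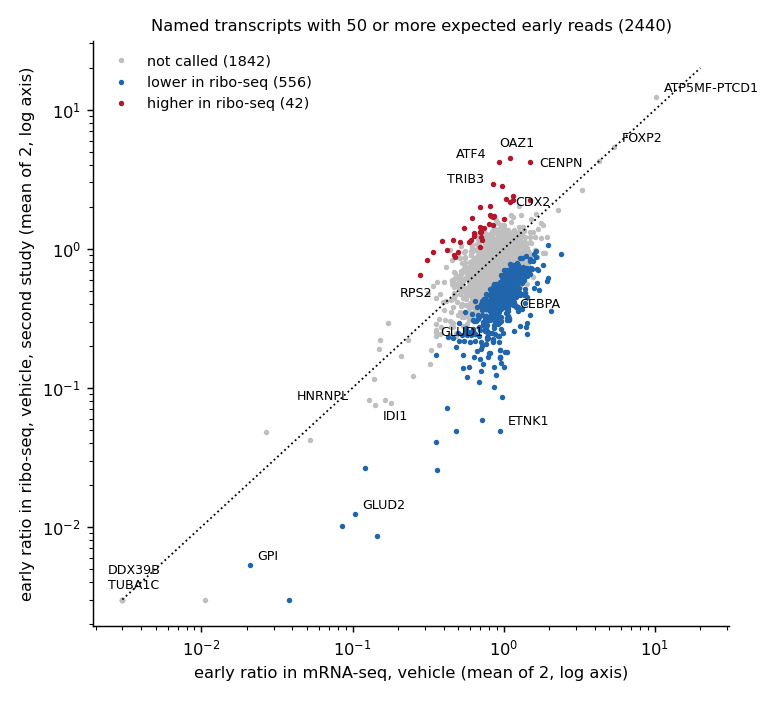
Mean early ratio in vehicle mRNA-seq (horizontal, log axis) and vehicle ribo-seq of the second study (vertical, log axis), n = 2 libraries each, for 2440 named transcripts with at least 50 expected early reads, with ratios under 0.003 drawn at 0.003. The 42 transcripts higher in ribo-seq lie above the diagonal, among them ATF4, OAZ1 and TRIB3, the 556 lower ones lie below it, and 1842 were not called.

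Transcripts whose 5′ UTR holds an ORF that runs into the CDS in another frame made up a larger share of those higher in ribo-seq than of those lower, as a description without a test. Such an ORF was defined as an ATG in the 5′ UTR, out of frame with the CDS, whose first stop in frame lies in the CDS after the first codon. It was present in 48 of the 148 transcripts higher in ribo-seq that had a matching model (32.4%), in 23 of the 799 lower (2.88%) and in 721 of all 6696 tested (10.8%). In CDX2 the ORF ended at codon 3, in CENPN at codon 14 and in MOSPD3 at codon 41, each 1 codon after the peak of vehicle reads, while in ATF5 it ended at codon 18 with the peak at codon 5. The scan found no such ORF in ATF4, OAZ1, TRIB3, MAPKAPK3 and NAA60, each in the annotated 5′ UTR of 1 transcript model. Other forms of these 5′ UTRs were not scanned, so an ORF of this kind in them is not excluded. The deposited counts do not record the frame of a read, and the part of these ORFs in the early reads was not tested.

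In gene groups, the medians lay between 0.336 and 0.718, beside 0.518 for all 2553 transcripts, apart from the study's own list described further on. Aminoacyl-tRNA synthetases were among the lower, with a median vehicle ratio of 0.336 over 18 genes, 12 of them at or under 0.5, from QARS1 (0.201 ± 0.0560) to FARSB (0.982 ± 0.215). Their mRNA-seq median was low as well, at 0.809 beside 0.905 for the 2553. Their median log2 difference between the assays was -0.16, beside -0.39 for all transcripts tested. In vehicle ribo-seq, chaperones of the cytosol had 0.406 over 17 genes and transporters and other membrane proteins 0.425 over 17. Mitochondrial matrix enzymes had 0.451 over 31 and glycolysis enzymes 0.468 over 12. Cytosolic ribosomal proteins of at least 200 codons had the highest median of these lists, 0.718 over 18 genes, from RPS2 (0.141 ± 0.0368) to RPL4 (1.41 ± 0.190). Within a list the genes ranged widely, as in the proteasome, where PSMD3 had 0.122 ± 0.0426 and PSMD2 1.17 ± 0.186 (SD, n = 6).

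Other lists lay between these. The median was 0.633 for 21 secreted hepatocyte proteins, 0.554 for 18 ER chaperones and folding enzymes, 0.581 for 24 translation factors, 0.582 for 16 genes of cholesterol biosynthesis, 0.530 for 27 nuclear RNA-binding proteins, 0.553 for 29 proteasome subunits, 0.598 for 6 ribosome rescue genes and 0.512 for 12 tubulins and actins. The 8 genes with known upstream ORF control had 0.610, from CEBPA to ATF4. The 9 genes encoded in mitochondria, which are read by another ribosome, had 0.514, with MT-ND1 at 1.81 ± 0.376 and MT-CYB at 0.403 ± 0.0794. Against mRNA-seq, 3 of 19 synthetases were lower in ribo-seq (1 higher), 2 of 18 ribosomal proteins and 2 of 19 cholesterol genes. Of secreted proteins 4 of 22 were lower (1 higher), with 4 of 19 ER chaperones, 7 of 19 transporters and 6 of 13 glycolysis enzymes. Matrix enzymes had 14 of 31 lower, proteasome subunits 12 of 29 and nuclear RNA-binding proteins 9 of 27. Translation factors had 9 of 24 and cytosolic chaperones 7 of 17. These are to be read beside 11.8% of all transcripts tested and 22.4% of the 2553. From matrix enzymes to cytosolic chaperones, all members belong to the 2553. With TMM factors 1 of 13 glycolysis enzymes was lower (1 higher), with 2 of 19 transporters, 0 of 19 ER chaperones and 1 of 22 secreted proteins (1 higher). Synthetases then had 1 lower (1 higher), ribosomal proteins 1 lower (5 higher) and cholesterol genes 0. The TMM counts from matrix enzymes to cytosolic chaperones were 9, 5, 3, 4 and 2. All these are to be read beside 4.02% and 8.81%. The unscaled counts from matrix enzymes to cytosolic chaperones became 4, 0, 0, 2 and 0 without ribo-seq replicate 4, and 6, 4, 1, 3 and 2 without ribo-seq replicate 5. They became 19, 16, 12, 10 and 12 without mRNA-seq replicate 4.

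The effect of PF-06446846 was examined next. At 10 min the early codons as a whole held a larger share of the footprints at 1.5 μM than in vehicle. The median early ratio per library, over 8031 transcripts, was 0.654, 0.642 and 0.582 at 1.5 μM, 0.502, 0.508 and 0.541 at 0.3 μM and 0.471, 0.559 and 0.517 in vehicle. The 1.5 μM libraries lay above the vehicle libraries, with a difference of 0.110 (two-sided exact permutation test, p = 0.1, the smallest p that 3 against 3 allows). The share of transcripts at or over 1.5 was 8.23% ± 0.692 at 1.5 μM and 4.31% ± 1.00 in vehicle (SD, n = 3), again without overlap (exact p = 0.1). The share at or under 0.5 was 37.7% ± 4.07 at 1.5 μM and 48.0% ± 5.74 in vehicle, where the groups overlapped (exact p = 0.2). For 0.3 μM the groups overlapped, with a difference of 0.00145 in the median (exact p = 1).

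At 60 min the groups overlapped at either dose. The medians were 0.561, 0.553 and 0.466 at 1.5 μM, 0.540, 0.568 and 0.486 at 0.3 μM and 0.585, 0.512 and 0.503 in vehicle, and the difference from vehicle was -0.00694 at 1.5 μM and -0.00239 at 0.3 μM (exact p = 1 for each). In the second study the difference was 0.0258 in ribo-seq and 0.00436 in mRNA-seq (exact p = 1 for each, where 2 against 2 cannot go below 0.333). At 10 min the excess was largest at the very start, where the median of codons 1 to 10 was 0.387 at 1.5 μM and 0.244 in vehicle, and it was no longer present at codons 51 to 60, with 0.820 and 0.850.

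**Figure D4:**
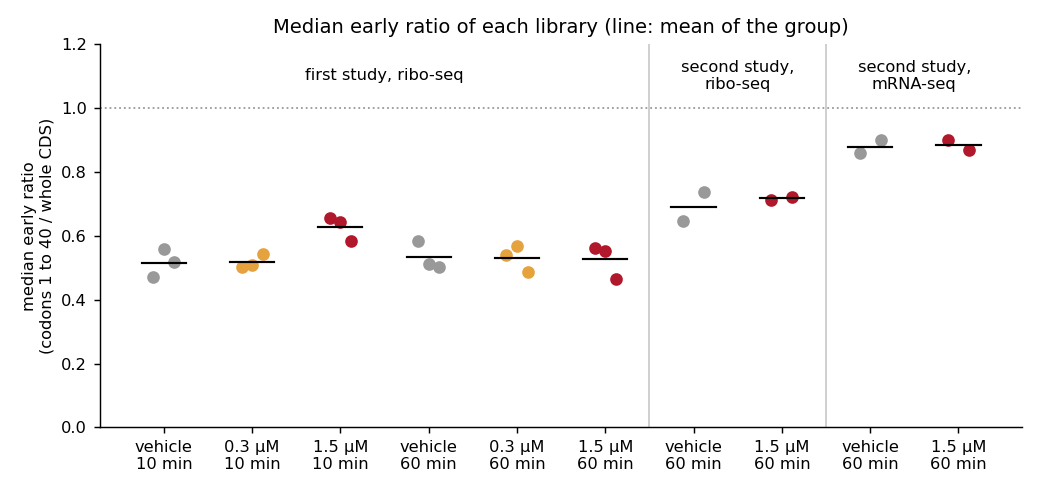
Median early ratio (vertical axis) of each of the 26 libraries, over 8031 transcripts (first study) or 8483 (second study), with a line at the mean of the group. The 3 libraries of 1.5 μM at 10 min (0.582 to 0.654) lie above those of vehicle at 10 min (0.471 to 0.559), and the mRNA-seq libraries (0.858 to 0.900) lie above every ribo-seq library.

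Transcript by transcript, 670 of 6223 (10.8%) had a higher early share at 1.5 μM than in vehicle after 10 min and 29 (0.466%) a lower one (edgeR, FDR 0.1). The median log2 change of the odds over all transcripts tested was 0.32, and with TMM factors, which bring the median to -0.00086, 181 were higher and 103 lower, so the predominance of higher calls rested in part on the general shift. The 699 calls became 181 without replicate 1 of 1.5 μM, 181 without its replicate 2 and 294 without vehicle replicate 1. After 60 min 20 of 6297 transcripts were higher (0.318%) and 1 lower (0.0159%), with a median log2 change of -0.01. There the same-numbered libraries deviated together, and with the replicate number as a block 39 were called, 36 of them higher, with all 21 among them. The 21 calls fell to 9 and 11 without replicate 2 or 3 of 1.5 μM, and to 10 and 12 without vehicle replicate 2 or 3.

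In ribo-seq of the second study 37 of 6536 transcripts were higher at 1.5 μM after 60 min (0.566%) and none lower, while in mRNA-seq none of 7886 was called (215 had an unadjusted p under 0.05, and DESeq2 called 1). The 37 became 19 without 1.5 μM replicate 4 and 57 without vehicle replicate 5. The mRNA-seq result held without the vehicle library that stood apart, whereas 456 transcripts were called without vehicle replicate 4, when that library alone was the control. For 0.3 μM, 2 of 6589 transcripts were higher after 10 min (0.0304%) and 0 of 6365 differed after 60 min, where 161 had an unadjusted p under 0.05 and DESeq2 called 0. Leaving out any 1 of the 6 libraries at 10 min took the 2 calls to 0, and without vehicle replicate 1 there were 7 calls at 60 min.

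Those higher after 60 min were also called at 10 min. All 20 that were higher at 60 min were among the 670 higher at 10 min (2.99% of those), which were compared with other vehicle libraries. MLX, the 1 transcript lower at 60 min, was not called at 10 min (log2 0.27, edgeR adjusted p = 0.741) or in the second study (-0.02, adjusted p = 1). Of the 37 in the second study 34 were among the 670 (91.9% of the 37 and 5.07% of the 670) and 17 were among the 20 (45.9% and 85.0%). A test of the difference between the effects at 10 and 60 min called 0 of 6263 transcripts (edgeR, 706 with an unadjusted p under 0.05, DESeq2 0), so that a transcript called at 10 min and not at 60 min was not shown to differ between the times.

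HSD17B11, a hydroxysteroid dehydrogenase of lipid droplets and the ER, is described first because its early reads gathered on 1 codon. Its early ratio at 10 min was 0.989, 1.04 and 0.963 in vehicle, 2.27, 1.53 and 2.25 at 0.3 μM and 4.66, 4.21 and 4.28 at 1.5 μM. At 60 min it was 1.29, 1.01 and 1.06 in vehicle, 1.99, 1.74 and 2.48 at 0.3 μM and 4.18, 4.41 and 5.43 at 1.5 μM. The doses thus stood in order without overlap at either time. In the second study it was 1.04 and 0.998 in vehicle and 3.21 and 3.23 at 1.5 μM, and in mRNA-seq 1.00 and 1.22 against 1.31 and 1.00. The log2 change of the odds at 1.5 μM was 3.19 ± 0.250 at 10 min (SE, edgeR adjusted p = 1.54e-08), 3.25 ± 0.339 at 60 min (adjusted p = 1.27e-05) and 2.25 ± 0.267 in the second study (adjusted p = 1.26e-11). The 0.3 μM change did not pass at either time (adjusted p = 0.925 and 0.719). At 1.5 μM codon 16 held 68.4%, 68.1% and 43.5% of the early reads in these 3 groups, against 9.25% in vehicle of the first study.

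PCBP1 and PCBP2, poly(C)-binding proteins that are alike at their start (101 of 120 bases, with a longest identical run of 11), rose together. The study reports ambiguous mapping of most reads between these genes, so their values are not separate observations. The part of shared reads was not tested here. PCBP2 had 0.773, 0.822 and 0.723 in vehicle at 10 min, 1.73, 2.13 and 1.64 at 0.3 μM and 3.64, 3.42 and 3.59 at 1.5 μM. At 60 min it had 1.06, 0.760 and 0.825, then 1.53, 1.58 and 1.79, and then 3.17, 2.93 and 3.54 in the same order, so that each dose stood apart from the next at both times. PCBP2 was called at 0.3 μM after 10 min (log2 1.46 ± 0.245, edgeR adjusted p = 0.0769), a call that was lost when any library was left out, and not at 60 min (adjusted p = 0.145). At 1.5 μM its log2 change was 2.86 at 10 min (adjusted p = 1.53e-09), 2.42 at 60 min (adjusted p = 1.27e-05) and 2.32 in the second study (adjusted p = 2.73e-26). PCBP1 had 0.922, 0.927 and 0.720 in vehicle and 3.33, 3.45 and 3.72 at 1.5 μM after 10 min. Codon 20 was the peak in each at 10 and 60 min, with 16.0% of the early reads of PCBP2 and 10.9% of those of PCBP1 at 60 min in the first study. The study places the main stall of each gene at another codon. In the second study the peak of PCBP2 was again codon 20, and that of PCBP1 was codon 6 (10.6% of its early reads).

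Other genes that rose are described next, several of which encode membrane or secreted proteins, while others that were called do not, such as NUBP2 at 60 min and CRY2 in the second study (chosen here after their values were seen). PODXL2, a sialomucin-like membrane protein, had 0.331, 0.368 and 0.702 in vehicle and 3.47, 4.17 and 4.02 at 1.5 μM after 10 min, 0.496, 0.287 and 0.696 against 2.90, 2.80 and 4.72 after 60 min, and 0.486 and 0.729 against 5.14 and 4.08 in the second study. TM2D3, a membrane protein with a TM2 domain, had 0.365, 0.456 and 0.230 against 3.02, 2.78 and 2.73 after 10 min and 0.225, 0.410 and 0.340 against 2.17, 2.47 and 2.34 after 60 min. Neither gene's groups overlapped, and at 0.3 μM both lay between them, at 1.01 to 1.37 for PODXL2 and 1.18 to 1.31 for TM2D3 after 10 min. At 60 min the log2 change was 3.38 ± 0.408 for TM2D3 (edgeR adjusted p = 5.93e-05).

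BCAP31, an ER membrane protein involved in the export of membrane proteins, had 0.369, 0.453 and 0.529 in vehicle and 1.59, 1.47 and 1.75 at 1.5 μM after 60 min, with a peak at codon 24 in all 3 comparisons (adjusted p = 9.79e-05 at 60 min, edgeR). EMC7, a subunit of the ER membrane protein complex, had 1.02, 0.608 and 0.655 against 1.78, 2.31 and 2.11, with a peak at codon 17, and was not called without 1.5 μM replicate 2 (adjusted p = 0.102). TGFBI, a secreted extracellular matrix protein, had 0.202, 0.166 and 0.212 against 0.631, 1.1 and 1.05, and 0.405 and 0.386 against 1.70 and 1.82 in the second study. SUMF1, the enzyme that activates sulfatases in the ER, had 1.31, 0.801 and 0.663 against 1.89, 3.41 and 3.73 at 60 min (adjusted p = 0.0550), a call lost without 1.5 μM replicate 2 or 3 or vehicle replicate 2 or 3. In these genes the early ratio of vehicle was under 1 in most libraries and over 1 at 1.5 μM in all libraries but 1, of TGFBI.

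**Figure D5:**
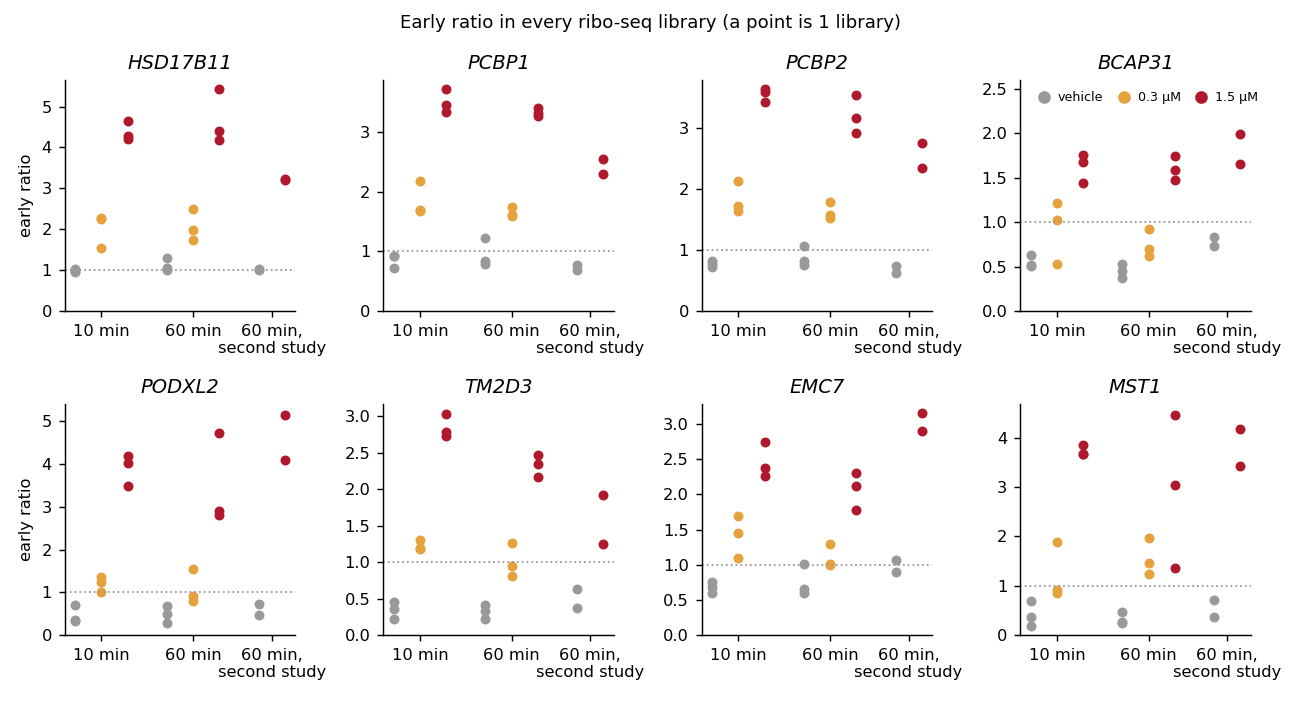
Early ratio (vertical axis) of 8 genes in every ribo-seq library, with vehicle in grey, 0.3 μM in orange and 1.5 μM in red, by time and study (horizontal axis), and a dotted line at an even spread of 1. In HSD17B11, PCBP1, PCBP2, PODXL2, TM2D3, BCAP31 and EMC7 the 1.5 μM points lie above the vehicle points of the same time and study, and in MST1 1 library of 1.5 μM at 60 min (1.36) lies among those of 0.3 μM.

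The study's own list of compound-sensitive genes, as far as it could be matched and named, gave 16 transcripts to test, of which 14 were higher at 10 min (median log2 2.41), 11 at 60 min (2.01) and 11 in the second study (1.88), beside 10.8%, 0.318% and 0.566% of all transcripts tested. The 11 at 60 min became 6 and 7 without replicate 2 or 3 of 1.5 μM and 7 and 8 without vehicle replicate 2 or 3. The study chose this list on these samples, so it is not independent evidence of a direction. It reports fewer reads downstream in these genes at 1.5 μM, which also raises the early ratio. A gain of early reads and a loss of later reads were not told apart here. MST1, a secreted growth factor of liver, had 0.193, 0.364 and 0.686 in vehicle and 3.67, 3.66 and 3.84 at 1.5 μM after 10 min, and PLA2G15, a lysosomal phospholipase, rose from an excess that vehicle had already (2.08, 2.39 and 2.10) to 6.68, 6.38 and 7.31. BRI3BP was higher at 10 min (log2 2.28, adjusted p = 0.00103), SUMF2 at 10 min (2.40, adjusted p = 5.51e-05) and CDH1, E-cadherin, at 10 min (1.65, adjusted p = 0.00384) but not at 60 min (0.93, adjusted p = 0.968). In the second study CDH1 was higher again (1.08, edgeR adjusted p = 0.00819), a call lost without 1.5 μM replicate 4 (adjusted p = 0.752) or vehicle replicate 5 (0.161). DPCD (log2 1.35) was higher at 10 min as well, but it did not pass with TMM factors (adjusted p = 0.108). USO1 and IFI30 did not pass in any of these tests, with log2 changes of 0.72 and 0.27 at 10 min. The list was drawn up over whole CDSs, and for CDH1, USO1 and IFI30 the study places the stall downstream of the codons counted here. LTBP3 and CCR1 had too few reads to be tested, and LTBP3 stood at 1.22, 0.654 and 2.19 in vehicle and 11.9, 7.08 and 10.1 at 1.5 μM after 10 min, from 45 and 98 early reads.

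Other names came from the largest changes alone, and most of them rest on few reads or lost the call when 1 library was left out. DDX41 and RPIA, listed as higher at 10 min, had 0 and 1 early footprints in vehicle and 5 and 9 at 1.5 μM. FADS2, listed as higher in the second study, had 2 early footprints in vehicle and 19 at 1.5 μM, and its call was lost without 1.5 μM replicate 4, vehicle replicate 4 or vehicle replicate 5. Among the genes lower at 10 min, ETV4, a transcription factor gene, had 0.469, 1.29 and 0.541 in vehicle and 0.221, 0.239 and 0.217 at 1.5 μM (log2 -1.76 ± 0.424, edgeR adjusted p = 0.0154), from 157 and 32 early reads, and it remained called without any 1 of the 6 libraries. BYSL, CTBP2, RFXANK and TBC1D7 had their highest vehicle value in replicate 2 and were not called without it, nor without replicate 1 or 2 of 1.5 μM. CTBP2 and RFXANK were not called without its replicate 3 either, and NTHL1 was not called without vehicle replicate 1 or replicate 2 or 3 of 1.5 μM. MLX, the 1 gene lower at 60 min, had 0.432, 0.222 and 0.306 in vehicle and 0.0969, 0.0462 and 0.0980 at 1.5 μM (adjusted p = 0.0887), a call that was lost when any of the 6 libraries was left out.

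Early hydrophobic segments were frequent among the genes that rose. The highest mean hydropathy over 9 residues of codons 1 to 40 was above the 75th percentile of the transcripts tested in 16 of 19 transcripts higher at 60 min (84.2%) and 31 of 37 in the second study (83.8%), beside 25.0% of all tested by construction. At 10 min it was so in 225 of 613 (36.7%). The share higher at 10 min was 10.2% in the class of lowest hydropathy and 27.5% in the highest of 4 classes, and it was 8.60% in the class of lowest GC content and 29.7% in the highest. The peak codon at 1.5 μM lay between codons 11 and 37 in the 20 transcripts higher at 60 min, with a median of 22.5. It lay within 1 codon of the peak at 10 min in 15 of the 20 (75%) and of the peak in the second study in 13 (65%), beside 56.6% and 31.7% of all 2553 transcripts. For the 37 higher in the second study, the peak there lay within 1 codon of the 10 min peak in 17 (45.9%) and of the first study's 60 min peak in 18 (48.6%), beside 31.5% and 31.7% of the 2553. These shares are descriptions and were not tested.

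By gene group, the counts at 10 min are to be read against the 10.8% of all transcripts tested that were higher, and against 18.6% of the 2553 transcripts with at least 50 expected early reads, to which most members of these lists belong. ER chaperones and folding enzymes had 9 of 19 higher (median log2 0.73) and secreted hepatocyte proteins 9 of 22 higher and 1 lower (0.40), beside a median of 0.32 over all transcripts, and with TMM factors these were 4 of 19 higher, and 4 higher and 3 lower of 22. Without replicate 1 of 1.5 μM the higher members were 4 and 2, without its replicate 2 they were 5 and 4, and without vehicle replicate 1 they were 6 and 5. CANX, an ER chaperone, had 0.994, 0.657 and 1.33 in vehicle and 2.12, 2.45 and 1.98 at 1.5 μM (log2 1.32, edgeR adjusted p = 0.00137), and FGA, the fibrinogen α chain, had 0.605, 0.427 and 1.08 against 2.35, 2.94 and 2.38 (log2 2.15, adjusted p = 1.54e-05). Over the 6 vehicle libraries of both times the mean was 1.50 for CANX and 0.948 for FGA, so vehicle was higher at 60 min than at 10 min. At 60 min the log2 change of CANX was 0.17 with the replicate number as a block (edgeR adjusted p = 0.975). Mitochondrial matrix enzymes had 8 of 31 higher, translation factors 7 of 24, cytosolic chaperones 5 of 17, cholesterol biosynthesis 5 of 19, aminoacyl-tRNA synthetases 4 of 19, tubulins and actins 4 of 12, proteasome subunits 4 of 29 with 1 lower and nuclear RNA-binding proteins 4 of 27. Ribosomal proteins and membrane transporters had 3 of 18 (1 lower) and 3 of 19, glycolysis enzymes 2 of 13, ribosome rescue genes 2 of 14, and the mitochondrially encoded genes and genes with upstream ORF control none of 9 and none of 11. Without replicate 1 or 2 of 1.5 μM, proteasome subunits, ribosomal proteins, cholesterol biosynthesis and glycolysis enzymes had no higher member, and matrix enzymes had 2 and 3. With TMM factors 2.91% of all transcripts tested were higher and 1.66% lower, or 5.52% and 2.78% of the 2553. Cytosolic chaperones then had 3 higher and nuclear RNA-binding proteins 2 higher and 1 lower, while translation factors had 1 higher and 2 lower. Matrix enzymes and ribosome rescue genes had 1 in each direction, and tubulins and actins and membrane transporters 1 higher each. Aminoacyl-tRNA synthetases, proteasome subunits, ribosomal proteins and glycolysis enzymes had 2 lower each and none higher, and cholesterol biosynthesis, mitochondrially encoded genes and genes with upstream ORF control 1 lower each and none higher.

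At 60 min no list other than the study's own had a call, and in the second study ER chaperones had 2 of 19 and secreted hepatocyte proteins 2 of 22, beside 0.566% of all transcripts tested, none of them called without replicate 4 or 5 of 1.5 μM. Among the secreted was FGA, with 0.722 and 0.794 in vehicle and 1.23 and 1.23 at 1.5 μM (log2 0.75, edgeR adjusted p = 0.00862). The early excess of ATF4, OAZ1, TRIB3 and CDX2 did not pass the test of 1.5 μM at 10 min (log2 -0.09, -0.48, -0.49 and 0.45, with adjusted p of 0.889, 0.205, 0.319 and 0.462), at 60 min or in the second study. Their ratios at 1.5 μM after 60 min were 4.04 to 4.44, 3.77 to 4.26, 2.16 to 2.78 and 2.64 to 5.59. Those of OAZ1 lay below its vehicle ratios at 60 min given above, without overlap. With the replicate number as a block the log2 difference of OAZ1 at 60 min was -0.51 (edgeR adjusted p = 0.640). TRIB3 had 4.79, 3.24 and 3.26 in vehicle at 60 min against 2.78, 2.39 and 2.16 at 1.5 μM, lower in 3 of 3 pairs and without overlap. Its log2 difference of -0.93 ± 0.336 (SE) had an adjusted p of 0.968 in edgeR, and of 0.144 with the replicate number as a block.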

How the data were processed

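Per the labels and the study's methods, the authors trimmed the reads, aligned them to transcripts with Bowtie (1.1.2 in the submitters' processing notes; seed of 23 bases) and deposited whole-number read counts per transcript and codon, with no normalization. A read with several best sites was counted at each if these were at most 5. Here the counts were summed over codons 1 to 40 and over the remaining codons. Names, coordinates and sequences came from GENCODE release 44 (GRCh38), which named 8714 of the 9488 transcripts. The study's table named a further 174, and 8256 CDS models matched. A few genes that the rule names are not reported here.

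Both counts of each transcript and library were fitted with edgeR 4.0.16 (R 4.3.3; quasi-likelihood test, equal offsets, 1 term per library, an early term and its interaction with treatment or assay). Transcripts with an average of at least 10 expected early reads were tested, and p-values were adjusted over all of them. The alternatives were DESeq2 1.42.0, other scalings, windows and filters, a replicate block and leaving out each library. A paired test of the assays' library medians was added after the data were seen. The scripts were tested on simulated data with a log2 change of 1 in 200 transcripts per comparison. Between 2.5% (difference between times) and 27.0% (second study ribo-seq) of these were called. It was 8.0% for 0.3 μM at 10 min, 11.5% for 1.5 μM at 60 min and 16.0% for mRNA-seq. Of the calls 2.5% to 20.0% were false, so a comparison with few or no calls does not exclude changes of this size.

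Genes were named by rule, as the 10 highest and 10 lowest mean vehicle ratios, the 5 highest and 5 lowest changes between assays, the 6 highest and 6 lowest changes per treatment comparison, the study's compound-sensitive genes and the extremes of each list. MRS2, in a small set listed in full, NUBP2 and CRY2 were named after their values were seen. The transcripts, lists and tests were chosen with earlier results of these data known. For 1.5 μM and vehicle at 60 min in the first study, libraries with the same number departed from their group means together in each pair (r = 0.400, 0.159 and 0.187 over 2553 transcripts), and the numbers were taken to pair the samples. Replicates 2 and 3 also had r = 0.158 and 0.131 across numbers, so that only replicate 1 was set apart by its number. Ribo-seq and mRNA-seq are paired since the study drew them from the same samples.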

Additional observations from a re-analysis of the deposited data

How the results depend on the processing

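No call of a named gene changed direction under the alternatives run, and the direction was checked for those genes only. The differences in library medians, other than those of 1.5 μM at 10 min and of the assays, took either sign when 1 library was left out. Of the counts of called transcripts and the library medians, 146 values stayed within 1.5 times the reported count or within the replicate spread and 48 did not, and 1 difference lost its call. For single genes 891 values stayed on their side of the threshold or within the replicate spread, 104 lost the call in the same direction and 38 moved by more than the spread. The 699 calls of 1.5 μM at 10 min became 389 at FDR 0.05, 348 with DESeq2, 284 with TMM factors and 269 with DESeq2 size factors in edgeR. The 1073 calls between assays became 683 at FDR 0.05, 591 with TMM factors and 515 with DESeq2 size factors. DESeq2 called 23 transcripts in the second study's ribo-seq and 1 in its mRNA-seq. For 0.3 μM at 10 min the 2 calls became 0 at FDR 0.05, 0 with the last 15 codons left out, and 4 with DESeq2 or TMM factors. At 60 min the 0 calls of 0.3 μM became 3 with DESeq2 size factors, 3 with TMM factors, 3 with no filter on low counts and 1 with codons 3 to 40. The test of the difference between times gave 2 calls with no filter. The difference of the library medians between ribo-seq and mRNA-seq was -0.316 with codons 1 to 20 and -0.133 with the mean in place of the median. The causes of these changes were not tested.

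With each library left out in turn the calls ranged from 181 to 776 for 1.5 μM at 10 min, from 9 to 20 at 60 min, from 0 to 0 for 0.3 μM at 10 min and from 0 to 7 at 60 min. They ranged from 19 to 57 in the second study's ribo-seq, from 0 to 456 in its mRNA-seq, from 118 to 2574 between assays and from 0 to 3 for the difference between times. Where 1 library was left in a group, it was assumed to vary like the other group. The difference in library medians ranged from 0.0879 to 0.133 for 1.5 μM at 10 min, from -0.0241 to 0.0234 at 60 min, from -0.0211 to 0.0233 for 0.3 μM at 10 min and from -0.0207 to 0.0233 at 60 min. It ranged from -0.0203 to 0.0719 for the second ribo-seq study, from -0.0166 to 0.0253 for mRNA-seq and from -0.189 to -0.158 between assays.

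With the replicate number as a block, 39 transcripts were called for 1.5 μM at 60 min and 1375 between assays, the comparisons whose numbers were taken to pair the samples. The difference in library medians between assays, -0.178 with the libraries paired by sample, had an exact p of 0.125, the smallest that 4 pairs allow; this test was added after the data were seen. In the others the numbers were not taken to pair the samples, with r from -0.180 to 0.240 between same-numbered libraries. For 0.3 μM at 60 min all were positive (r = 0.198, 0.0265 and 0.147). In these other comparisons the block gave 522 calls for 1.5 μM at 10 min, 0 for 0.3 μM at 10 min and 4 for 0.3 μM at 60 min. It gave 38 in the second study's ribo-seq, 1 in its mRNA-seq and 0 for the difference between times. A transcript with few reads limits the precision of its ratio, and 6355 of 9488 transcripts had at least 10 expected early reads.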
